A study of Mus musculus with 54 samples.

Results

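The interferon regulatory factors (IRFs) are a family of transcription factors, and 8 of its genes, Irf1, Irf2, Irf3, Irf4, Irf5, Irf7, Irf8 and Irf9, were followed by their symbols through the 33280 genes counted in bulk RNA-seq libraries of sorted brain macrophages. All 8 genes passed the low-count filter in each of 24 comparisons, though Irf4 entered some of them only through the groups where it was high. IRFs share a DNA-binding domain that reads GAAA-containing elements in the promoters of interferon-responsive genes. Irf3 and Irf7 encode the factors that switch on type I interferon genes once kinases downstream of pattern-recognition receptors have phosphorylated them, and Irf9 encodes the DNA-binding subunit of the complex formed after type I interferon binds its receptor. Irf1 encodes an activator that is itself induced by interferon-gamma, and Irf2 encodes its close relative, long described as its antagonist. Irf5 acts below Toll-like receptors in macrophages, Irf8 is needed for the development of microglia and monocytes, and Irf4 is best known from dendritic cells, alternatively activated macrophages and B cells.

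Microglia (MG), the macrophages of the brain tissue, and subdural CNS-associated macrophages (sdCAMs), those of the leptomeninges and perivascular spaces, were sorted by flow cytometry from brains freed of choroid plexuses. The data held 54 libraries from 24 mice in 18 groups of 3, each library of a group coming from a separate mouse. In WT mice and in Ccr2-/- mice, which lack the chemokine receptor that monocytes use to leave the bone marrow, MG and sdCAMs were taken from 3 groups. One received vehicle (CTL) and then lipopolysaccharide (LPS), a bacterial endotoxin, one received BLZ945, a CSF1 receptor inhibitor under which these macrophages are lost and later repopulate, followed by LPS, and one was untreated and received PBS. Vehicle and LPS therefore cannot be told apart in the LPS comparison of WT and Ccr2-/- mice. Reporter mice carried Ccr2CreERT2 and R26tdT on both alleles, were all given BLZ945 and tamoxifen, and then received LPS or PBS. Their sdCAMs were split into tdTomato-positive (tdT+) cells, whose ancestors expressed Ccr2 at the time of tamoxifen, and tdT- cells, which may include Ccr2 descendants that did not recombine. LPS or PBS was injected 8 weeks after the end of treatment and cells were harvested 12 h later. The reporter libraries were a separate batch from the WT and Ccr2-/- libraries, so no reporter group was tested against these. Orders and correlations over all 18 groups mix the batches.

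Library totals ran from 1705930 to 11330781 counts, and several libraries stood apart before any IRF was examined. Levels are given as scaled CPM, that is CPM from library totals corrected by TMM scaling factors over all 54 libraries. The TMM factors of the 3 WT sdCAM libraries after CTL and LPS were 0.344 to 0.494, and those of the 3 tdT- libraries after LPS were 0.470 to 0.700, against 0.843 to 1.37 in the other libraries except 1 WT sdCAM library after BLZ945 and LPS (mouse 12) at 0.369. Labels marked 6 of the 9 WT sdCAM libraries with an IEG correction that they do not explain. Ccr2 itself was at 17 to 51 scaled CPM in untreated WT sdCAMs and at 2.33 to 5.21 in those of Ccr2-/- mice, where the counted reads may lie outside the deleted part. The titles of Ccr2-/- libraries after LPS contradict the cell type given in their labels, and the label was followed: the summed level of 7 border macrophage markers was 7.90 to 28.8 in all Ccr2-/- MG libraries and 6010 to 18300 in all Ccr2-/- sdCAM libraries. Over all MG libraries that sum reached at most 28.8 and over all sdCAM libraries it was at least 905.

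In the reporter mice, the columns named tdT- sdCAM of mouse 1 after LPS and tdT+ sdCAM of mouse 7 after LPS carried sequencing index numbers that the labels give to each other. As named, the MG and tdT+ libraries of mouse 1 held 499 and 342 counts of the Y-linked Ddx3y with 0 and 1 counts of Xist, whereas its tdT- column held 0 counts of Ddx3y and 1580 of Xist. The MG and tdT- libraries of mouse 7 held 7841 and 1037 counts of Xist and 0 of Ddx3y, whereas its tdT+ column held 0 of Xist and 352 of Ddx3y. With the columns exchanged, the 3 libraries of each mouse held the same one of these genes. The column names were kept here, and results on tdT+ and tdT- sdCAMs after LPS are given as named, with values for both columns exchanged and for both left out beside them. The library labelled tdT+ of mouse 5 after LPS also stood apart, since the median of its microglial markers reached 83.3% of that in the MG library of the same mouse, against 3.92% and 10.2% in mice 1 and 7, and its border macrophage sum was 905 against 5740 and 6560.

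Promoter stretches of 4 members are shown because these 4 carry the main patterns described here. Irf7 and Irf1 were higher after LPS in WT and Ccr2-/- MG, and Irf8 had estimates below 0 in all populations. Irf2 was higher in Ccr2-/- sdCAMs and, with the reporter columns as named, in tdT- sdCAMs. The tdT- rise of Irf2 did not pass with the columns exchanged. The sequences are the 250 bases before an annotated start in RefSeq for GRCm38.p6, read 5′ to 3′ on the strand of the gene, in lower case with motif matches in capitals. The capitals mark matches to the interferon-stimulated response element (ISRE, GAAANNGAAA), the gamma-activated sequence (GAS, TTCNNNGAA), an NF-kB site (GGGNNTTNCC) and the composite site of PU.1 and IRF4 or IRF8 (ETS-IRF, GGAANNGAAA), on either strand.
Irf1, chr11:53769764-53770013, plus strand: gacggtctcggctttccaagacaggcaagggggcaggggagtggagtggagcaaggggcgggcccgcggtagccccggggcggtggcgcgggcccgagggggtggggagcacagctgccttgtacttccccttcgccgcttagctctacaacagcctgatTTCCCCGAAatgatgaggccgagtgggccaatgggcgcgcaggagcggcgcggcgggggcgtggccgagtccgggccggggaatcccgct
Irf2, chr8:46739495-46739744, plus strand: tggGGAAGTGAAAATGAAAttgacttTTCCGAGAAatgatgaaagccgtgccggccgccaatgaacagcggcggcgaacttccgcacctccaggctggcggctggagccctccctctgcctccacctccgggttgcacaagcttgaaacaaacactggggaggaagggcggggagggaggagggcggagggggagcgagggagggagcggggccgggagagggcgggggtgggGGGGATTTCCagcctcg
Irf7, chr7:141266425-141266674, minus strand: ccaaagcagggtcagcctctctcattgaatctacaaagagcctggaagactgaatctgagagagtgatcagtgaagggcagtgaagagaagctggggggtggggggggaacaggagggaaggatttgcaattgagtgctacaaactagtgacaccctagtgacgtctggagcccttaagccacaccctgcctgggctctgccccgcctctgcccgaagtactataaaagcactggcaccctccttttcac
Irf8, chr8:120736108-120736357, plus strand: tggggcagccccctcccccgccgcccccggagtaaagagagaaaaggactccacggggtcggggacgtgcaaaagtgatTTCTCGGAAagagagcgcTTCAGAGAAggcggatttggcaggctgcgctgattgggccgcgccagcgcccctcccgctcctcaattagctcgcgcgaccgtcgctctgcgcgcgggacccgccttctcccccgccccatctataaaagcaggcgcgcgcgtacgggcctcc
Counted from the start site, Irf1 held 1 GAS match at -90 to -82. Irf2 held an ETS-IRF match at -247 to -238 that overlaps an ISRE match at -241 to -232, followed by a GAS match at -224 to -216 and an NF-kB match at -17 to -8. Irf8 held 2 GAS matches, at -171 to -163 and -153 to -145, and Irf7 held no match to these letters. Of 32851 promoter windows of 300 bases, 3.44% held the ISRE letters, 8.30% the GAS letters, 4.79% the NF-kB letters and 2.72% the ETS-IRF letters. Only 11 windows belong to the members, of which 1 held the ISRE letters, 3 the GAS letters, 1 the NF-kB letters and 1 the ETS-IRF letters. The windows of the members not printed, Irf3, Irf4, Irf5 and Irf9, held no match. A match is a description of letters, not a site.

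Across the 7 LPS comparisons, 21 of 56 member tests passed at an adjusted p under 0.05. LPS comparisons set LPS against PBS within each population, using edgeR's quasi-likelihood test with Benjamini-Hochberg adjustment over all genes tested in that population. In WT MG, 5 of 8 members passed against 30.9% of all genes, and in Ccr2-/- MG 3 of 8 passed against 34.9%. In WT sdCAMs 2 of 8 passed against 6.32% of all genes, Irf4 among them, though it had entered only through the PBS libraries. In Ccr2-/- sdCAMs 5 of 8 passed against 28.8%. In reporter mice 0 of 8 passed in MG against 1.08%, 1 of 8 in tdT+ sdCAMs against 13.6% and 5 of 8 in tdT- sdCAMs against 27.1%. With the columns exchanged the last 2 became 0 of 8 each, against 8.63% and 11.9%. With both left out they were 0 and 5 of 8, against 8.57% and 21.9%. For reporter MG, 5 of the 8 members had an unadjusted p under 0.05 in edgeR, against 1510 of 10882 genes. DESeq2 passed 2 members, Irf4 and Irf9, against 7.86% of all genes, where Irf4 had entered only through the LPS libraries. The edgeR fit of reporter MG had a common coefficient of variation between mice of 0.810, against 0.257 in WT MG and 0.264 in Ccr2-/- MG.

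**Figure D1:**
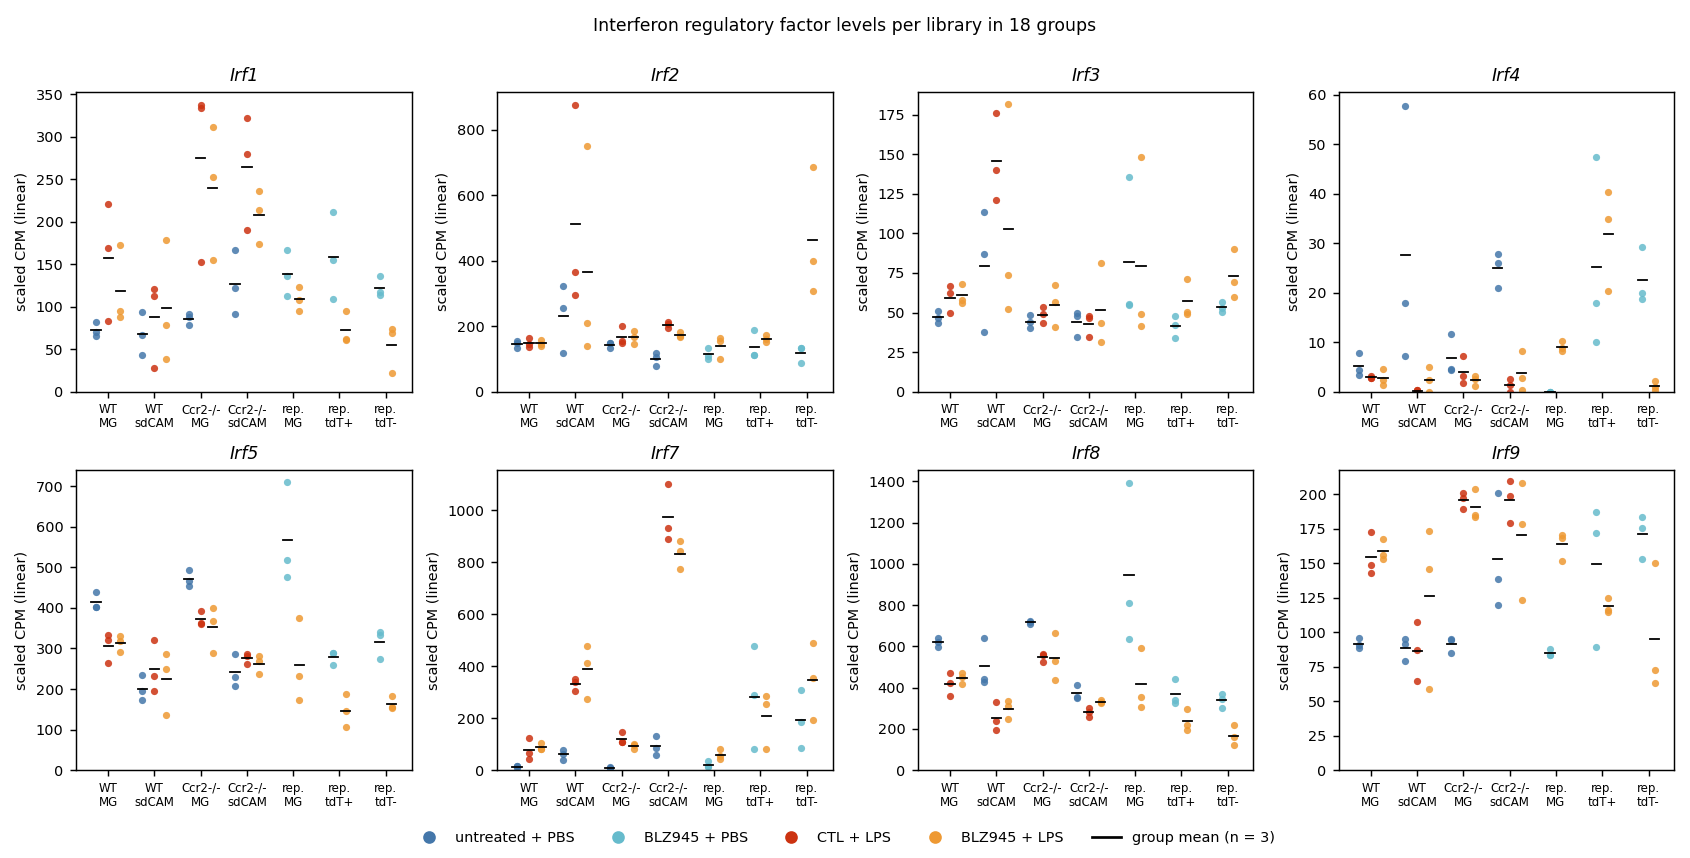
Level of each IRF gene in every library, in scaled CPM on the vertical axis, for the 7 sorted populations on the horizontal axis. Points are single libraries coloured by condition and bars are means of 3 mice. Irf7 sits highest in Ccr2-/- sdCAMs after LPS, Irf5 and Irf8 sit higher in untreated MG than in MG after LPS, and Irf4 lies near 0 in MG of all groups.

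Irf7 showed the largest LPS response among the members in MG of WT and Ccr2-/- mice, and in MG it started from a low level. The 3 untreated WT MG libraries held 17.1, 14.5 and 9.34 scaled CPM, and the 3 after CTL and LPS held 123, 42.1 and 64.4. In Ccr2-/- MG the values were 12.2, 7.71 and 8.01 untreated and 109, 146 and 110 after LPS. No LPS library overlapped an untreated one in either genotype. Irf7 rose in WT MG by 2.5 ± 0.351 (log2 fold change and its SE, n = 3 against 3, edgeR adjusted p = 0.000342) and in Ccr2-/- MG by 3.73 ± 0.218 (edgeR adjusted p = 4.85e-08). Bulk values of this kind cannot tell fewer cells of a type from less RNA per cell. Both calls held under all alternative settings and with any single library left out.

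Irf7 also rose in sdCAMs of both genotypes, from a higher base. WT sdCAMs went from 62.7, 79.1 and 39.8 to 341, 305 and 349 scaled CPM, and Ccr2-/- sdCAMs from 85.3, 133 and 59.2 to 890, 931 and 1098. The log2 fold change was 2.57 ± 0.504 in WT (SE, edgeR adjusted p = 0.0170) and 3.39 ± 0.253 in Ccr2-/- (edgeR adjusted p = 9.08e-07). The WT call did not stand with library totals alone in place of TMM factors, at 1.16 (edgeR adjusted p = 0.227), nor without CTL mouse 6 or PBS mice 9, 14 or 15, where the adjusted p reached 0.0689. In reporter sdCAMs the values after PBS ran from 80.9 to 476 in tdT+ and from 83.8 to 308 in tdT- libraries. After LPS the libraries labelled tdT+ held 255, 82.0 and 287 and those labelled tdT- 490, 192 and 356, so that both ranges overlapped those after PBS. The log2 differences were -0.43 (95% interval -1.73 to 0.86) in tdT+ and 0.84 (-0.46 to 2.14) in tdT- sdCAMs, and neither passed. Exchanged, they were -0.03 and 0.53, and with both left out -0.75 and 0.48. In reporter MG the values were 33.8, 17.8 and 12.1 after PBS and 80.6, 44.1 and 53.1 after LPS, all higher, with a log2 difference of 1.45 ± 0.555 that did not pass (edgeR adjusted p = 0.296).

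Irf7 was the member with the clearest difference between cell types as well. Untreated sdCAMs held more Irf7 than untreated MG of the same genotype, by 2.18 ± 0.416 on the log2 scale in WT (SE, edgeR adjusted p = 0.00193) and by 3.31 ± 0.255 in Ccr2-/- (edgeR adjusted p = 1.17e-08). After CTL and LPS the difference was 2.16 ± 0.411 in WT (edgeR adjusted p = 0.000998) and 3.01 ± 0.241 in Ccr2-/- (edgeR adjusted p = 2.03e-08), and all 3 sdCAM libraries lay above all 3 MG libraries in each of these comparisons. With library totals alone the WT difference after LPS was 0.39 (edgeR adjusted p = 0.528). The log2 LPS responses of the cell types did not differ by the interaction test in WT (-0.02, 95% interval -1.12 to 1.08) or in Ccr2-/- mice (-0.30, -0.98 to 0.39). Ordered over 18 groups, Irf7 ran from 973 ± 110 scaled CPM (SD, n = 3) in Ccr2-/- sdCAMs after CTL and LPS to 9.32 ± 2.52 in untreated Ccr2-/- MG, and 13 of 17 neighbouring pairs in that order had overlapping ranges.

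Irf9 rose in MG of both genotypes and its values were tight between mice. WT MG went from 91.2, 95.8 and 88.5 to 172, 143 and 149 scaled CPM, and Ccr2-/- MG from 94.5, 95.4 and 84.7 to 189, 201 and 197. The rises were 0.76 ± 0.134 (SE, edgeR adjusted p = 0.00146) and 1.12 ± 0.129 (edgeR adjusted p = 1.72e-05) on the log2 scale. Reporter MG held 87.8, 83.7 and 83.3 after PBS and 171, 152 and 168 after LPS, also without overlap, and the difference of 0.91 ± 0.308 did not pass in edgeR (adjusted p = 0.224) but passed in DESeq2 (adjusted p = 0.0278). No sdCAM population changed by the test. Its log2 difference was 0.08 in WT sdCAMs and -1.41 there with library totals alone, and it was 0.36 in Ccr2-/- sdCAMs, -0.33 in tdT+ and -0.85 in tdT- sdCAMs. With the columns exchanged the last 2 were -0.56 and -0.61, and with both left out -0.31 and -0.65. Untreated Ccr2-/- sdCAMs held more Irf9 than untreated MG, at 153 ± 42.4 against 91.5 ± 5.91 scaled CPM (SD, n = 3), a log2 difference of 0.74 (edgeR adjusted p = 0.00680), which did not stand without sdCAM mouse 3m (adjusted p = 0.0687). In untreated WT mice the same difference was -0.03 (95% interval -0.71 to 0.65).

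Irf3 passed after LPS in no population. Its edgeR adjusted p was lowest in WT MG, at 0.121, where the untreated libraries held 51, 43.5 and 46.4 scaled CPM and the LPS libraries 66.5, 49.8 and 62.1. All 3 LPS libraries lay above all 3 PBS libraries in WT, tdT+ and tdT- sdCAMs, with the columns as named. In that order they held 121 to 176, 49.3 to 71.5 and 59.5 to 90.2. The PBS libraries held 37.6 to 114, 34.1 to 47.9 and 50.6 to 56.6. With library totals alone the estimates in WT and tdT- sdCAMs changed sign. The 3 WT sdCAM libraries after CTL and LPS held 121, 176 and 140, above the 3 MG libraries of the same mice, with a log2 difference of 1.35 ± 0.434 (SE, edgeR adjusted p = 0.0223). The TMM factors of these sdCAM libraries were 0.344 to 0.494, and with library totals alone the difference turned to -0.45 (edgeR adjusted p = 0.373). Within reporter MG, PBS mouse 175 and LPS mouse 1 held 136 and 148, against 41.8 to 55.1 in the other 4 libraries. In 17 of 17 neighbouring pairs of groups the ranges of Irf3 overlapped.

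**Figure D2:**
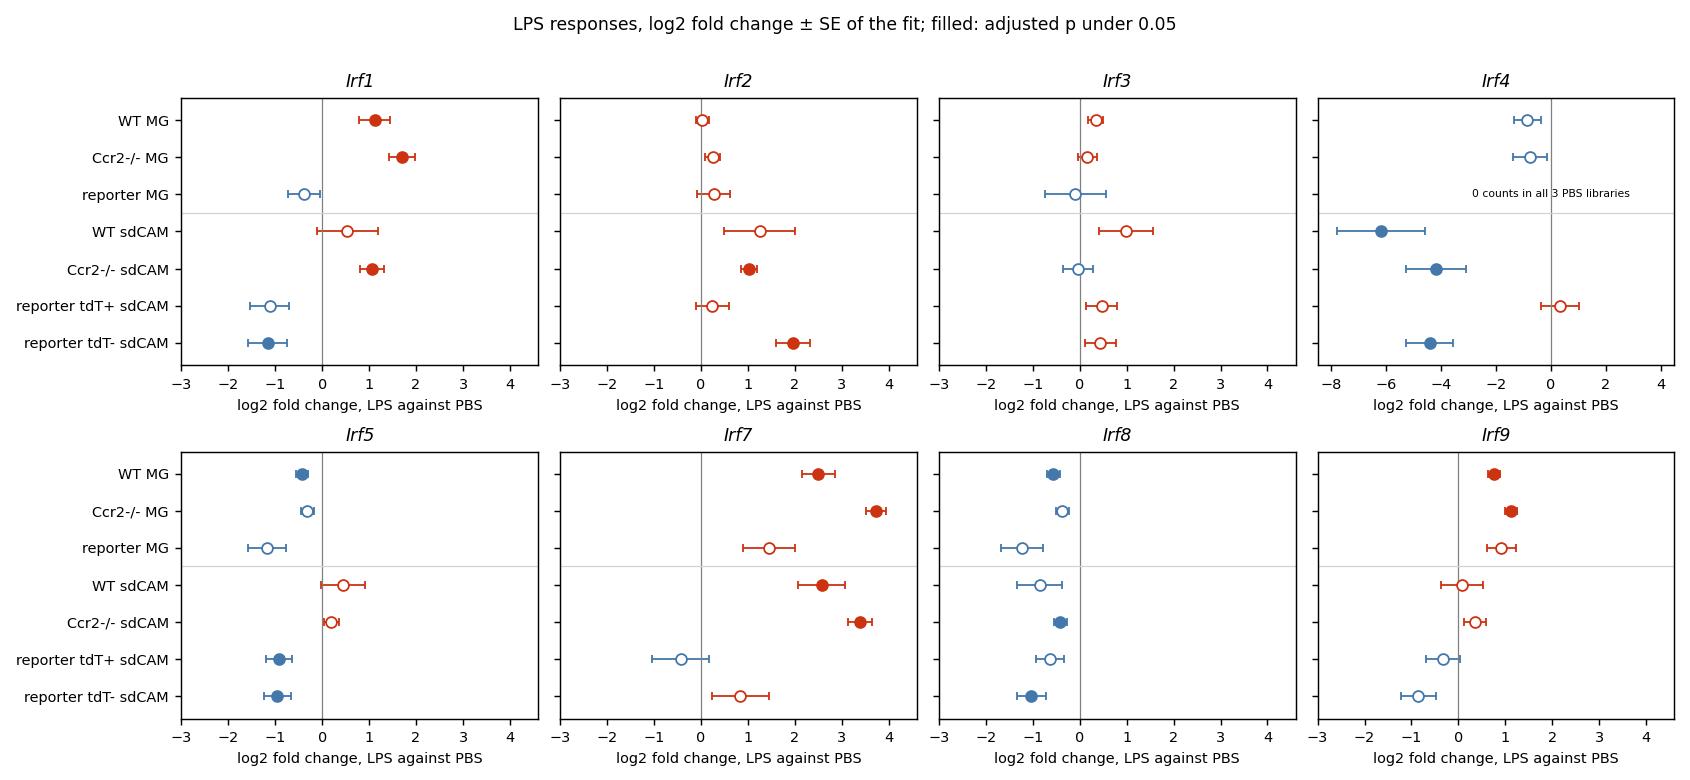
Log2 fold change of each IRF gene after LPS in the 7 populations, with bars for the standard error and filled symbols where the edgeR adjusted p was under 0.05. Irf7 is filled in 4 populations and Irf8 lies below 0 in all 7, with the reporter columns as named. The Irf4 panel has its own axis and shows no point for reporter MG, where all 3 PBS libraries held 0 counts. Its filled point for WT sdCAMs comes from a fit that Irf4 entered only through the PBS libraries.

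Irf1 rose after LPS in MG of both genotypes and in Ccr2-/- sdCAMs. WT MG held 69.6, 65.8 and 82.4 scaled CPM untreated and 221, 83.6 and 168 after CTL and LPS, of which mouse 4 at 83.6 lay just above the highest untreated library. Ccr2-/- MG went from 77.9, 88.2 and 91.0 to 334, 337 and 152, and Ccr2-/- sdCAMs from 122, 166 and 91.1 to 322, 280 and 190. The log2 fold changes were 1.12 ± 0.326 (SE, edgeR adjusted p = 0.0208), 1.70 ± 0.285 (edgeR adjusted p = 0.000393) and 1.06 ± 0.251 (edgeR adjusted p = 0.00680). The WT MG call did not stand without CTL mouse 1 or 6 or PBS mouse 9 or 14, where the adjusted p reached 0.0745, whereas both Ccr2-/- calls stood under all settings and with any library left out.

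Irf1 did not pass as higher in the other sdCAM populations. WT sdCAMs held 67, 43 and 93.6 scaled CPM untreated and 121, 28.0 and 113 after CTL and LPS, a log2 difference of 0.53 (95% interval -0.89 to 1.95) that was -0.96 with library totals alone, where the median of all genes moved from -0.08 to -1.55. The tdT- libraries held 136, 113 and 117 after PBS and 73.9, 22.4 and 68.9 after LPS, and Irf1 fell by 1.16 on the log2 scale (edgeR adjusted p = 0.0493). Exchanging the columns gave -1.27 (edgeR adjusted p = 0.0716) and leaving both out -1.46 (adjusted p = 0.0445), and neither DESeq2 (adjusted p = 0.0823) nor median-of-ratios size factors passed it (edgeR adjusted p = 0.102), and with single libraries left out the adjusted p reached 0.121. The tdT+ libraries held 212, 109 and 154 after PBS and 61.9, 94.4 and 61 after LPS, with a log2 difference of -1.12 (edgeR adjusted p = 0.0845). It was -1.04 with the columns exchanged and -1.02 with both left out. Reporter MG held 112, 166 and 136 after PBS and 123, 95.2 and 108 after LPS, overlapping ranges with a log2 difference of -0.39 (95% interval -1.19 to 0.41).

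All 24 MG libraries held 98.6 to 201 scaled CPM of Irf2, and the gene rose in Ccr2-/- sdCAMs. In tdT- sdCAMs it rose by the test with the columns as named, but not with the columns exchanged. Ccr2-/- sdCAMs held 78.3, 117 and 106 untreated and 193, 213 and 208 after CTL and LPS, without overlap, and the rise of 1.03 ± 0.173 in log2 units (SE, edgeR adjusted p = 0.000664) stood under all settings and left-out libraries. Irf2 was lower in untreated Ccr2-/- sdCAMs than in untreated MG, by 0.53 on the log2 scale (log2 difference -0.53, edgeR adjusted p = 0.0223), and the LPS response of sdCAMs exceeded that of MG by 0.82 ± 0.225 (SE, edgeR interaction, adjusted p = 0.0297). With the mouse as a replicate block that interaction was 0.84 (edgeR adjusted p = 0.0527), with library totals alone 0.57 (edgeR adjusted p = 0.115), and its adjusted p reached 0.109 when single libraries were left out.

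The tdT- libraries held 88.7, 133 and 135 scaled CPM of Irf2 after PBS and 398, 686 and 306 after LPS. The log2 difference was 1.96 ± 0.357 (SE, edgeR adjusted p = 0.000784), 1.69 with the columns exchanged (adjusted p = 0.0588) and 2.04 with both left out (adjusted p = 0.00283). The tdT+ libraries held 111, 188 and 112 after PBS and 173, 153 and 160 after LPS, with a log2 difference of 0.24 (95% interval -0.49 to 0.98), 0.82 exchanged and 0.24 with both left out. After LPS, tdT+ libraries were lower than tdT- libraries in Irf2 by 1.52 on the log2 scale (log2 difference -1.52, edgeR adjusted p = 0.0113). That difference was -0.67 with the columns exchanged (edgeR adjusted p = 0.907), -1.60 with both left out (adjusted p = 0.0528) and -0.41 with library totals alone (adjusted p = 0.339). Exchanged, mouse 7's sdCAM libraries held 398 and 306, mouse 1's 173 and 160, and mouse 5's 153 and 686.

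WT sdCAMs held 322, 254 and 118 scaled CPM of Irf2 untreated, 876, 296 and 365 after CTL and LPS, and 138, 210 and 750 after BLZ945 and LPS. The LPS difference of 1.25 (95% interval -0.41 to 2.90) did not pass, and it was -0.18 with library totals alone. After CTL and LPS, Irf2 was higher in WT sdCAMs than in MG by 1.87 ± 0.556 in log2 units (SE, edgeR adjusted p = 0.0148), which turned to -0.01 (edgeR adjusted p = 0.983) with library totals alone. The high Irf2 values fell in libraries with low TMM factors, including mouse 12 after BLZ945. The summed level of 5 neutrophil markers was 360 to 3260 in WT sdCAMs after CTL and LPS against 0 to 94.2 untreated. It was 571 to 2230 in tdT- sdCAMs after LPS against 0 after PBS. It was 60.9 to 93.9 in Ccr2-/- sdCAMs after CTL and LPS and 8.45 to 47.7 in tdT+ sdCAMs after LPS. After LPS nearly all of this sum was S100a8, and Ly6g was at 0 in every sdCAM library. The other markers did not rise with S100a8 in WT sdCAMs. There S100a9 was at 0 to 67.3 untreated, where S100a8 reached 34.5, and at 0 to 10.2 after CTL and LPS. Retnlg was at 0 in both groups and Mpo at most at 2.03. The part of these transcripts in the Irf2 result was not tested.

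**Figure D3:**
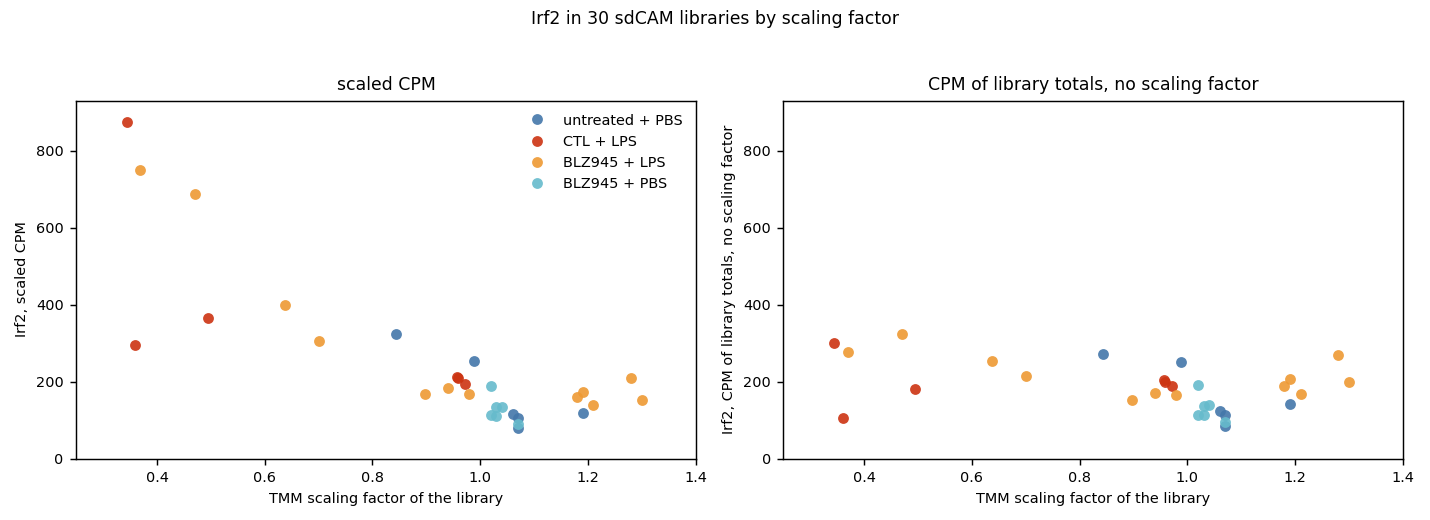
Irf2 in the 30 sdCAM libraries, plotted against the TMM factor of each library, as scaled CPM on the left and as plain CPM from library totals on the right. On the left the highest values, 876, 750 and 686 scaled CPM, sit at low TMM factors.

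Irf8 had an estimate below 0 after LPS in all 7 populations and passed in 3 of them. In scaled CPM all 3 LPS libraries lay below all 3 PBS libraries in 7 of 7 comparisons, and the estimate kept its sign under each alternative run. WT MG went from 622, 639 and 597 to 470, 361 and 425 scaled CPM, and Irf8 fell by 0.56 on the log2 scale (edgeR adjusted p = 0.00737). Ccr2-/- MG went from 720, 725 and 710 to 565, 525 and 559, a log2 difference of -0.37 that did not pass in edgeR (adjusted p = 0.0672) but passed in DESeq2 (adjusted p = 0.0314). Ccr2-/- sdCAMs went from 411, 351 and 357 to 300, 257 and 282, and the log2 difference of -0.42 (edgeR adjusted p = 0.0384) did not stand without any 1 of the 6 libraries, with adjusted p up to 0.169. WT sdCAMs went from 642, 426 and 444 to 331, 195 and 239, with a log2 difference of -0.86 (edgeR adjusted p = 0.299). Reporter MG held 813, 1391 and 637 after PBS and 591.4, 357 and 307 after LPS, with a log2 difference of -1.23 (edgeR adjusted p = 0.271).

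In tdT- sdCAMs Irf8 went from 370, 303 and 347 to 219, 123 and 160 scaled CPM and fell by 1.03 on the log2 scale (edgeR adjusted p = 0.0197). The difference was -1.03 with the columns exchanged (edgeR adjusted p = 0.0868) and -1.29 with both left out (adjusted p = 0.0143). In tdT+ sdCAMs it was -0.64 (edgeR adjusted p = 0.179), from 441, 342 and 326 to 193, 298 and 220, and -0.64 and -0.59 in those alternatives. The summed level of 4 monocyte markers was 142 to 287 in tdT- sdCAMs after PBS and 9.34 to 79.1 after LPS, and 230 to 286 and 9.86 to 27.3 in tdT+ sdCAMs, with the columns as named. Of these markers, Ccr2 alone was at 142 to 194 in tdT- sdCAMs after PBS and 4.45 to 56.2 after LPS. In tdT+ sdCAMs Ccr2 was at 230 to 281 and 6.62 to 21.2. The summed level of 6 glial and neuronal markers was 52.2 to 70 and 303 to 435 in tdT- sdCAMs, and 19.3 to 68 and 104 to 118 in tdT+ sdCAMs. The part of these transcripts in the Irf1, Irf5 and Irf8 results of reporter sdCAMs was not tested. With median-of-ratios size factors the tdT- Irf8 difference was -0.83 (edgeR adjusted p = 0.0543). Between cell types, Irf8 was lower in Ccr2-/- sdCAMs than in Ccr2-/- MG, by 0.95 on the log2 scale untreated (log2 difference -0.95, edgeR adjusted p = 2.94e-05) and by 0.97 after CTL and LPS (log2 difference -0.97, edgeR adjusted p = 2.23e-05). In WT mice the differences were -0.27 (95% interval -0.92 to 0.38) untreated and -0.65 (-1.30 to 0.0036) after LPS, and neither passed. The median microglial marker stood at 17.5 to 37.8% of its MG level in untreated WT sdCAMs and at 10.3 to 17.7% after CTL and LPS, against 5.71 to 9.23% and 6.48 to 11.6% in Ccr2-/- sdCAMs, and the part of microglial transcripts in the Irf5 and Irf8 differences was not tested. The highest group mean of Irf8 was 947 ± 394 scaled CPM (SD, n = 3) in reporter MG after PBS and its lowest 167 ± 48.1 in tdT- sdCAMs after LPS, both in the separate reporter batch.

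Irf5 fell in WT MG and in reporter sdCAMs as named, and not by the test in the other populations. WT MG went from 403, 403 and 438 to 265, 333 and 321 scaled CPM, without overlap, and fell by 0.43 on the log2 scale (edgeR adjusted p = 0.0292). That call did not stand with library totals alone, with the 6 libraries fitted alone, or without CTL mouse 1 or 6 or any PBS mouse, where the adjusted p reached 0.108. Ccr2-/- MG went from 466, 455 and 493 to 359, 393 and 364, with a log2 difference of -0.32 (edgeR adjusted p = 0.0905, DESeq2 adjusted p = 0.0440), and reporter MG from 476, 709 and 518 to 374, 173 and 232, with -1.17 (edgeR adjusted p = 0.237). In WT sdCAMs the log2 difference was 0.44 (95% interval -0.59 to 1.46), or -1.05 with library totals alone, and in Ccr2-/- sdCAMs 0.20 (-0.15 to 0.54). Untreated sdCAMs held less Irf5 than untreated MG, by 1.02 on the log2 scale in WT (log2 difference -1.02, edgeR adjusted p = 0.0385) and by 0.97 in Ccr2-/- mice (log2 difference -0.97, edgeR adjusted p = 4.24e-05). With the mouse as a replicate block the WT difference was -1.03 (edgeR adjusted p = 0.0943). After CTL and LPS in Ccr2-/- mice it was -0.42 (edgeR adjusted p = 0.0347), and with that block the adjusted p was 0.0618.

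Both reporter sdCAM fractions were lower in Irf5 after LPS. The tdT+ libraries went from 288, 259 and 288 to 147, 187 and 107 scaled CPM, a log2 difference of -0.92 (edgeR adjusted p = 0.0416), and the tdT- libraries from 341, 275 and 332 to 156, 183 and 153, a log2 difference of -0.95 (edgeR adjusted p = 0.0206). The differences with the columns exchanged were -0.77 (edgeR adjusted p = 0.182) and -1.10 (adjusted p = 0.0559), and with both left out -0.74 (adjusted p = 0.143) and -0.93 (adjusted p = 0.0406). The tdT+ call did not stand with the study's low-count rule (edgeR adjusted p = 0.0647) or with library totals alone (edgeR adjusted p = 0.174), and its adjusted p reached 0.172 with single libraries left out. Nor did the tdT- call stand with median-of-ratios size factors (edgeR adjusted p = 0.0553). All 6 LPS libraries were below all 6 PBS libraries whichever way the columns were assigned. Of the exon bases of Irf5, 14.1% overlap Tnpo3 on the opposite strand, and whether counting used strand is not given in the sources used here.

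Irf4 was the lowest member in all 18 groups per kilobase of exon, and it fell after LPS in Ccr2-/- sdCAMs. Ccr2-/- sdCAMs held 21.0, 25.9 and 27.8 scaled CPM untreated and 0, 2.63 and 1.35 after CTL and LPS, and Irf4 fell by 4.19 on the log2 scale (edgeR adjusted p = 0.0119), a call that stood under all settings and left-out libraries. WT sdCAMs held 17.9, 7.30 and 57.7 untreated and 0.378, 0 and 0.307 after CTL and LPS, the latter from 1, 0 and 1 counts. The untreated level was 93.5 times the LPS level, with an interval of 25.9 to 772 that covers counting error alone and takes the 2 reads as independent molecules, which libraries without molecular identifiers do not ensure. Irf4 passed the low-count filter of this WT comparison only through the PBS libraries, so that no test of it is given. In MG the levels were 3.41 to 7.74 untreated and 2.69 to 3.07 after CTL and LPS in WT, and 4.37 to 11.6 and 1.65 to 7.23 in Ccr2-/- mice, without a call.

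The sum of 4 dendritic cell markers was lower after LPS in all 4 sdCAM populations. Most of it was Cd209a in sdCAMs after PBS and in WT and Ccr2-/- sdCAMs after CTL and LPS, whereas Cd209a was at 0 to 3.39 scaled CPM in reporter sdCAMs after LPS. In tdT+ sdCAMs, as named, Zbtb46 was at 0 to 15.4 after PBS and 3.24 to 24 after LPS. Flt3 was there at 0 to 8.69 and 0.815 to 11.1. In WT, Ccr2-/- and tdT- sdCAMs, Zbtb46 was lower after LPS without overlap. The sum was 429 to 628 scaled CPM in untreated Ccr2-/- sdCAMs and 73.5 to 160 after CTL and LPS, and 96.1 to 199 and 19.6 to 57.1 in WT sdCAMs. It was 383 to 541 in tdT- sdCAMs after PBS and 6.11 to 23.8 after LPS, and 71.5 to 133 and 8.73 to 38.5 in tdT+ sdCAMs. Xcr1 was at 0 in all WT sdCAM libraries and in all reporter sdCAM libraries after LPS. The 6 B and plasma cell markers summed to 27.3 to 32.6 in untreated Ccr2-/- sdCAMs and 11.4 to 14.6 after CTL and LPS, and to 3.93 to 19.9 and 5.29 to 37.3 in WT sdCAMs. The part of these transcripts in the Irf4 and Irf8 results was not tested.

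In reporter sdCAMs the columns as named split Irf4 by tdT after LPS. The libraries labelled tdT+ held 17.8, 47.5 and 9.96 scaled CPM after PBS and 40.3, 20.3 and 34.8 after LPS. Those labelled tdT- held 18.7, 29.3 and 20 after PBS and 0.964, 0.243 and 2.22 after LPS. In tdT- sdCAMs Irf4 fell by 4.41 on the log2 scale (edgeR adjusted p = 0.00124), and in tdT+ sdCAMs the log2 difference was 0.34 (95% interval -1.12 to 1.80), without a call, or -0.29 exchanged and 0.26 with both left out. After LPS the fractions differed by 4.89 ± 0.865 (SE, edgeR adjusted p = 0.00158), and the interaction was 4.75 ± 1.08 (SE, edgeR adjusted p = 0.0173). With both columns left out, the tdT- response was -4.38 (edgeR adjusted p = 0.00971), the difference after LPS was 4.78 (edgeR adjusted p = 0.0218) and the interaction 4.64 (adjusted p = 0.0709). With the columns exchanged the difference was 0.71 (edgeR adjusted p = 0.992), the interaction 0.57 (adjusted p = 1.00) and the tdT- response -0.86 (adjusted p = 0.685). In counts, mouse 1's sdCAM libraries then held 99 and 113, mouse 7's 3 and 5, and mouse 5's 144 in tdT+ and 1 in tdT-, so that only mouse 5 kept the split, whose tdT+ library carried the microglial transcripts described above. With that library left out and the columns as named, the difference after LPS was 5.17 (edgeR adjusted p = 0.00266).

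Reporter MG held 0 counts of Irf4 in all 3 libraries after PBS and 99, 84 and 94 counts after LPS, at 10.2, 8.22 and 8.82 scaled CPM. Against the level that 3 counts per library would give, the LPS level was at least 31.8-fold higher. Irf4 passed the low-count filter of this comparison only through the LPS libraries, so that no test of it is given. The 3 PBS libraries had 10815 to 12333 genes with a count, against 13493 to 14327 in reporter MG after LPS and 13928 to 14676 in untreated WT and Ccr2-/- MG, and P2ry12, a microglial receptor, was at 790 scaled CPM in PBS mouse 175 against 7860 and 9830 in the other 2. The part of this in the reporter MG results was not tested.

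**Figure D4:**
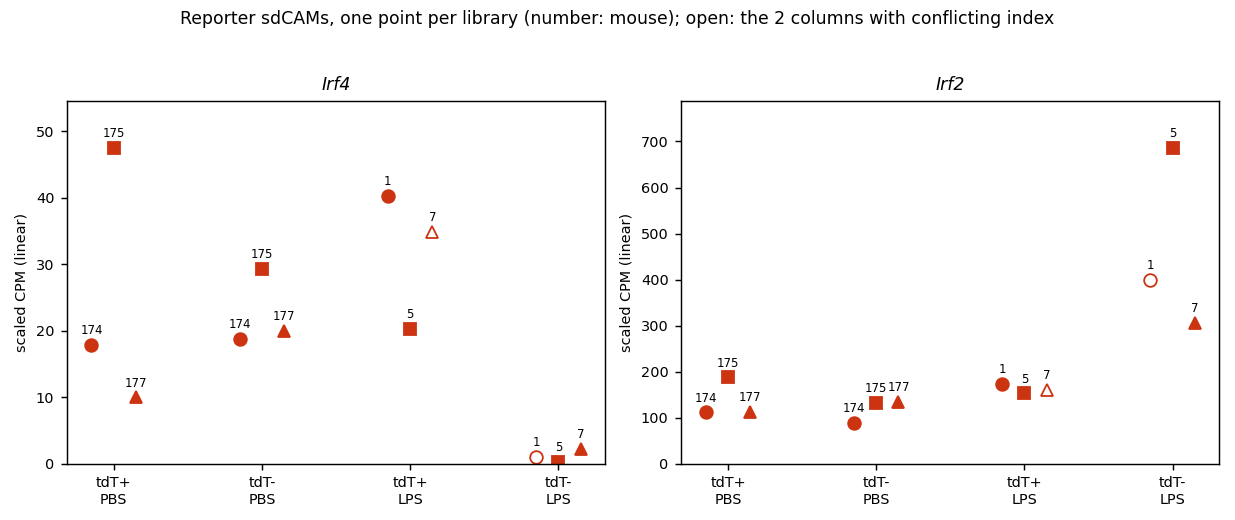
Irf4 and Irf2 in the reporter sdCAM libraries, in scaled CPM, with each point labelled by its mouse number and open symbols for the columns with conflicting index numbers. As named, the tdT+ libraries after LPS held 20.3 to 40.3 scaled CPM of Irf4 and the tdT- libraries 0.243 to 2.22. Exchanging the open symbols mixes the fractions.

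Between tdT+ and tdT- sdCAMs after PBS, 0 of 8 members passed in edgeR against 0.0236% of all genes, with 0 members at an unadjusted p under 0.05 and 0 in DESeq2. The intervals were wide, and for Irf7 the log2 difference was 0.54 (95% interval -0.75 to 1.83). After LPS 2 of 8 passed against 10.8%, and by the interaction 1 of 8 against 5.17%, both with the columns as named. Exchanging the columns left 0 of 8 in each, and 0 genes passed over the whole table in edgeR, with 816 and 605 at an unadjusted p under 0.05. DESeq2 was not run on exchanged columns.

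Prior depletion by BLZ945 was compared with CTL, both after LPS, in WT and Ccr2-/- mice, which asks whether repopulated macrophages held other IRF levels than undepleted ones. No member passed in any of the 4 comparisons by edgeR, 0 of 32 tests had an unadjusted p under 0.05, and DESeq2 also passed 0. The share of all genes passing was 0.0763% in WT MG, 0% in WT sdCAMs, 0.0173% in Ccr2-/- MG and 0% in Ccr2-/- sdCAMs. For the sdCAM comparisons, 758 and 998 genes had an unadjusted p under 0.05 and DESeq2 passed 11 and 88. Irf7 held 82.6, 103 and 80.7 scaled CPM in WT MG after BLZ945, inside the range after CTL, and 479, 412 and 274 in WT sdCAMs against 341, 305 and 349 after CTL. In Ccr2-/- sdCAMs it held 844, 773 and 879 after BLZ945, all below the 890, 931 and 1098 after CTL, with a log2 difference of -0.25 (95% interval -0.75 to 0.25). The log2 intervals of all members but Irf4 lay between -1.10 and 0.93 in WT MG, whereas in WT sdCAMs they reached -2.18 to 1.49, so that larger differences than in MG lie within the error there.

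Comparing Ccr2-/- with WT mice asked whether the receptor's loss shifted IRF levels or their LPS responses. The labels put both genotypes in 1 batch, but they came in separate tables, and the study's methods name a batch correction for these datasets that was not repeated here, so that genotype and library run cannot be told apart. No member passed in the 4 comparisons by edgeR, where 4 of 32 tests had an unadjusted p under 0.05, and DESeq2 passed 0. Of all genes, 17.5% differed between untreated MG and 9.6% between untreated sdCAMs, where 3839 and 3571 genes had an unadjusted p under 0.05 in edgeR. By either interaction 0% differed, where 503 and 1792 genes had an unadjusted p under 0.05 in edgeR and DESeq2 passed 1 and 247. The Irf7 response of MG was larger in Ccr2-/- mice by 1.27 ± 0.428 on the log2 scale (SE, unadjusted p = 0.00804 in edgeR's fit), which did not survive adjustment (adjusted p = 1.00). In sdCAMs the corresponding difference was 1.01 (95% interval -0.08 to 2.09). The untreated levels of Irf5 and Irf8 in MG were higher in all 3 Ccr2-/- mice than in all 3 WT mice, at 471 ± 19.6 against 415 ± 20.4 and 719 ± 7.85 against 619 ± 20.9 scaled CPM (SD, n = 3), and neither difference passed.

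Between sdCAMs and MG, the number of members passing was 2 of 8 in untreated WT mice against 17.4% of all genes, and 5 of 8 in untreated Ccr2-/- mice against 22.4%. After CTL and LPS it was 3 of 8 in WT against 36.7% and 3 of 8 in Ccr2-/- against 27% of all genes. By the interaction of LPS and cell type, 0 of 8 passed in WT against 1.32%, and 1 of 8 in Ccr2-/- against 8.14%. In WT 1 member, Irf4, had an unadjusted p under 0.05 in edgeR, against 2344 of 13136 genes. Irf4 was also the 1 member that passed there in DESeq2, against 6.62% of all genes. For Irf4 in WT the interaction was -5.56 ± 1.59 in log2 units (SE, edgeR adjusted p = 0.0905, DESeq2 adjusted p = 0.0145).

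Compared per kilobase of exon, Irf5 was highest and Irf8 second in MG of all groups, at 143 ± 7.03 and 87.8 ± 2.97 scaled CPM per kb (SD, n = 3) in untreated WT MG, where Irf7 stood at 3.61 ± 1.05. After CTL and LPS Irf7 led in sdCAMs, at 258 ± 29.2 against 95.2 ± 4.51 for Irf5 in Ccr2-/- mice. In WT sdCAMs Irf7 at 87.9 ± 6.20 and Irf5 at 85.7 ± 22.2 did not differ beyond their spread.

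Ordered by scaled CPM over the 18 groups, the members differed in which populations stood at the ends. The place of a reporter group against WT or Ccr2-/- groups cannot be told apart from batch. Irf1 was highest in Ccr2-/- MG after CTL and LPS at 274 ± 106 (SD, n = 3) and lowest in tdT- sdCAMs after LPS at 55.1 ± 28.4. Irf2 ran from 512 ± 317 in WT sdCAMs after CTL and LPS to 100 ± 19.7 in untreated Ccr2-/- sdCAMs, and Irf3 from 146 ± 28 in WT sdCAMs after CTL and LPS to 41.4 ± 6.9 in tdT+ sdCAMs after PBS. Both of these highest means belong to libraries with TMM factors of 0.344 to 0.494. Irf4 ran from 31.8 ± 10.4 in the libraries labelled tdT+ after LPS to 0 in reporter MG after PBS, and Irf5 from 568 ± 124 in reporter MG after PBS to 147 ± 40.2 in the libraries labelled tdT+ after LPS. Irf9 ran from 196 ± 15.6 in Ccr2-/- sdCAMs after CTL and LPS to 84.9 ± 2.49 in reporter MG after PBS. Of 17 neighbouring pairs of groups in each order, the ranges overlapped in 17 for Irf1 and Irf9, in 16 for Irf2 and Irf4 and in 15 for Irf5 and Irf8, so that most neighbours did not differ beyond their spread.

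The genes around the IRFs were read from lists of known function, whose counts stand against the share of all genes that passed after LPS, 30.9% in WT MG, 34.9% in Ccr2-/- MG, 6.32% in WT sdCAMs and 28.8% in Ccr2-/- sdCAMs. Of 16 sensors and kinases upstream of IRFs, 5 rose and 3 fell in WT MG, 6 and 2 in Ccr2-/- MG, 1 and 2 in WT sdCAMs, and 5 and 3 in Ccr2-/- sdCAMs. Ikbke, the inducible kinase that phosphorylates IRF3 and IRF7, rose by the test in WT and Ccr2-/- MG and in all sdCAM populations. In reporter sdCAMs this also held with the columns exchanged or left out. In Ccr2-/- sdCAMs Ikbke went from a mean of 1.23 to 476 scaled CPM (edgeR adjusted p = 1.88e-07). Tlr7, an endosomal RNA sensor, rose in WT MG from 401 to 1110 (edgeR adjusted p = 4.24e-05). Sting1, the adaptor of cytosolic DNA sensing, fell there from 656 to 194 (edgeR adjusted p = 0.000699), and Tlr4, the LPS receptor, fell in Ccr2-/- sdCAMs from 387 to 157 (edgeR adjusted p = 4.67e-05).

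Among 11 tested interferon, receptor and JAK-STAT genes, 3 rose and 1 fell in WT MG, 5 and 1 in Ccr2-/- MG, 1 and 0 in WT sdCAMs, and 5 and 2 in Ccr2-/- sdCAMs, shares close to those of all genes in WT MG and WT sdCAMs. Stat2, which encodes a partner of Irf9, rose in Ccr2-/- MG from 34.3 to 142 scaled CPM (edgeR adjusted p = 1.29e-05). Socs3, a feedback inhibitor of cytokine receptors, rose in Ccr2-/- sdCAMs from 8.24 to 730 (edgeR adjusted p = 3.50e-09). Of 7 tested IRF partners, 3 rose and 1 fell in Ccr2-/- sdCAMs, 1 and 0 in WT sdCAMs, and 1 and 2 in MG of each genotype. Batf, which joins IRF4 and IRF8 on composite sites, rose in Ccr2-/- sdCAMs from 19.7 to 134 (edgeR adjusted p = 3.95e-06), and Spi1, encoding PU.1, rose there from 375 to 687 (edgeR adjusted p = 0.000435).

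Of 18 type I interferon-stimulated genes, 8 rose in WT MG, 15 in Ccr2-/- MG, 3 in WT sdCAMs and 12 in Ccr2-/- sdCAMs, and 0 fell in these. Their median log2 fold changes in that order were 1.01, 2.60, 1.5 and 1.48, with the median of all genes between -0.08 and 0.02. By the interaction of LPS and genotype, 0 of the 18 passed in MG and 0 in sdCAMs, against 0% of all genes in each. The counts therefore do not show a difference between the genotypes. Zbp1, a nucleic acid sensor, rose in Ccr2-/- sdCAMs from 40.4 to 473 scaled CPM (edgeR adjusted p = 7.40e-08). Of the 11 or 12 tested targets of IRF1 and interferon-gamma, 6 rose and 1 fell in WT MG, 8 and 0 in Ccr2-/- MG, 3 and 1 in WT sdCAMs, and 11 and 1 in Ccr2-/- sdCAMs. Gbp2, a guanylate-binding protein, rose in Ccr2-/- sdCAMs from 36.7 to 1130 (edgeR adjusted p = 1.09e-06). Untreated sdCAMs held more of the interferon-stimulated genes than untreated MG, 9 of 18 in WT against 17.4% of all genes differing and 17 of 18 in Ccr2-/- mice against 22.4%, and 0 were lower.

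In reporter mice 1.08% of all genes passed in MG, 13.6% in tdT+ sdCAMs and 27.1% in tdT- sdCAMs. In reporter MG no listed gene but Ikbke passed in edgeR. Ikbke was at 0 in the PBS libraries and at a mean of 54.5 scaled CPM after LPS. It entered this fit only through the LPS libraries, so that no test of it is given. The medians in reporter MG were 1.04 for the interferon-stimulated genes and 0.84 for the IRF1 targets. In tdT- sdCAMs 8 interferon-stimulated genes rose as named, 3 with the columns exchanged and 6 with both left out, and 0 fell in any of these. In tdT+ sdCAMs 1 rose and 3 fell as named, 1 and 0 exchanged, and 0 and 0 with both left out, with medians of -0.14, 0.36 and -0.19. Of the 12 IRF1 targets 4 rose and 4 fell in tdT- sdCAMs as named, 2 and 2 exchanged, and 4 and 3 with both left out. In tdT+ sdCAMs 1 rose and 4 fell, 0 and 1 exchanged, and 0 and 2 with both left out. Of the sensors and kinases, 1 rose and 3 fell in tdT-, 1 and 2 exchanged and 1 and 3 with both left out, and in tdT+ 3 and 3, 2 and 0, and 2 and 2.

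**Figure D5:**
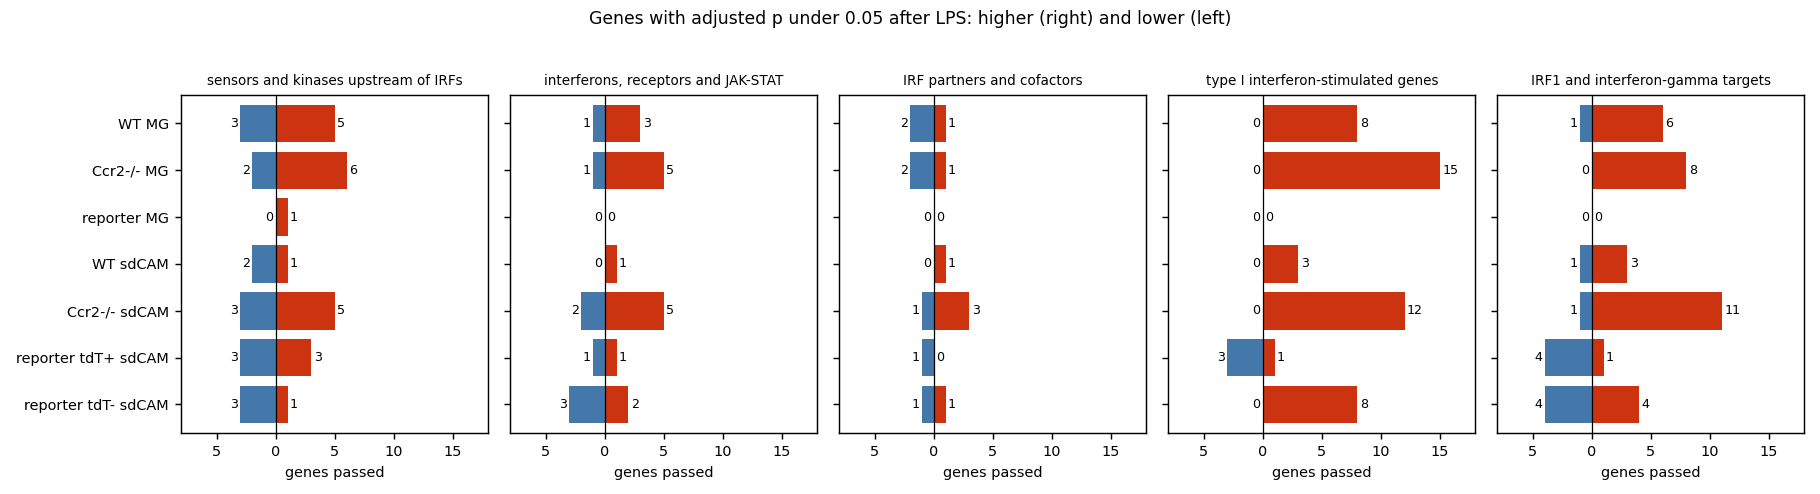
Number of genes of each list that rose or fell after LPS at an edgeR adjusted p under 0.05, for 5 lists and 7 populations. Interferon-stimulated genes rose in 15 of 18 cases in Ccr2-/- MG and 12 of 18 in Ccr2-/- sdCAMs, and in tdT+ sdCAMs, with the columns as named, 1 rose and 3 fell.

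Likeness to each member was measured as Pearson's correlation over the 18 group means of log2(scaled CPM + 1). It is a description in which cell types of a genotype share mice, all groups share the scaling and the reporter groups are a separate batch. The genes most like Irf7 were Oasl1, Ifit1 and Il18bp, with r of 0.965, 0.957 and 0.956. Those most like Irf8 were Olfml3, Slc35c2 and Vsir, at 0.958, 0.957 and 0.955, and those most like Irf2 were Tcea1, Cox6a2 and Eif3c, at 0.958, 0.958 and 0.953. The gene most like Irf1 was Spryd3 at 0.938, Irf9 Rab32 at 0.929, Irf5 Rxrb at 0.917, Irf4 Gapvd1 at 0.882 and Irf3 Ube2d-ps at 0.878. Among the members, Irf5 and Irf8 correlated at 0.854, Irf1 and Irf9 at 0.811, and Irf7 and Irf8 at -0.792.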

How the data were processed

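Bulk RNA-seq libraries of sorted MG and sdCAMs were analysed from 3 tables of whole-number counts per gene symbol. To make these counts before they were deposited, the authors prepared cDNA from small amounts of RNA without molecular identifiers, and the submitters' processing notes name bcl2fastq 2.20, STAR 2.7.11a, featureCounts 2.0.8 and DESeq2 1.46.0. The sources name GRCm39 and mm10 without saying which was used, so coordinates are given only for RefSeq promoter windows. All 54 columns were matched to labels.

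Genes were filtered with filterByExpr, scaled with TMM and tested with edgeR 4.0.16 (quasi-likelihood test, R 4.3.3) in one fit per cell type and genotype, with combined fits for cell type, genotype and tdT comparisons, and p-values were Benjamini-Hochberg adjusted over all genes tested. A member passed at an adjusted p under 0.05. With 3 mice a group an exact permutation test could not go below p = 0.1. The IRF genes and the gene lists were chosen with earlier results of these data known. All 8 members were named. Per list and comparison, up to 4 genes with the smallest p could be named, and likeness used genes at a mean of at least 10 CPM without predicted genes. Intervals of log2 differences are 95% and cover the spread between mice. A ratio to a group with few counts has a 95% interval for counting error only, and a bound against a group at 0 uses a floor of 3 counts per library.

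DESeq2 1.42.0, other scalings and filters, single libraries left out, the exchange of the 2 columns and the mouse as a replicate block were the alternatives. MG and sdCAM libraries, and tdT+ and tdT- libraries, came from the same mice per the labels. The deviations of libraries from the same mouse correlated at 0.0056 to 0.13 in WT, -0.0241 to 0.157 in Ccr2-/- and 0.0369 to 0.167 in reporter mice. The main design left out this block. The scripts were tested on simulated data.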

Additional observations from a re-analysis of the deposited data

Results flagged for a closer look

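The LPS response of Irf4 differed between tdT+ and tdT- sdCAMs by the interaction test, at 4.75 log2 units with the columns as named (edgeR adjusted p = 0.0173), at 0.57 with the columns exchanged (edgeR adjusted p = 1.00) and at 4.64 with both left out (edgeR adjusted p = 0.0709). The LPS response of Irf2 differed between sdCAMs and MG of Ccr2-/- mice, at 0.815 log2 units (edgeR adjusted p = 0.0297), and at 0.84 with the mouse as a replicate block (edgeR adjusted p = 0.0527). Groups of 3 mice were too small for the test of single outlying samples.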

How the results depend on the processing

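The numbers of the 8 members passing that moved by over 1.5 times were these, with the share of all genes passing under the same setting in brackets. A log2 fold limit of 1 left 2 (16.7%) in WT MG and 0 (13.4%) in tdT+ sdCAMs. Between sdCAMs and MG of Ccr2-/- mice it left 1 (15%) untreated, 1 (18.4%) after LPS and 0 (6.88%) for the interaction. DESeq2 passed 5 (38.1%) in Ccr2-/- MG, 2 (7.86%) in reporter MG and 2 (9.69%) for the tdT interaction. For the cell type interactions it passed 1 (6.62%) in WT and 2 (11.4%) in Ccr2-/- mice. Fitting the 6 compared libraries alone passed 5 (43.4%) in Ccr2-/- MG, and the study's low-count rule 0 (9.71%) in tdT+ sdCAMs. Median-of-ratios size factors passed 2 (26.6%) in tdT- sdCAMs, 2 (5.47%) for the tdT interaction and 1 (17.3%) between untreated WT sdCAMs and MG. Library totals alone passed 0 (13.4%) in tdT+ sdCAMs and 5 (30.5%) between tdT+ and tdT- after LPS. They passed 5 (60.7%) between WT sdCAMs and MG after LPS and 2 (20.6%) for the WT cell type interaction. In the WT comparison after LPS the difference turned to -0.0127 for Irf2 and -0.454 for Irf3, while the median over all genes moved to -1.92.

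With the columns exchanged 0 members passed in tdT+, in tdT-, between them after LPS and by interaction, and 0 in the last 2 with the replicate block as well. With both columns left out it was 0 in tdT+, 1 between fractions after LPS, against 6.42% of all genes, and 0 by interaction. With the exchange and tdT+ mouse 5 left out, alternatives added after the data were seen, it was 0 in tdT+, 1 in tdT-, 0 between fractions and 0 by interaction. The replicate block alone passed 1 between untreated WT sdCAMs and MG and 0 for the Ccr2-/- cell type interaction, lost Irf5 between Ccr2-/- sdCAMs and MG after LPS, and changed no other member's call.

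Leaving out single libraries gave 3 to 6 members in WT MG, 0 to 1 in WT sdCAMs, 3 in Ccr2-/- MG, 4 in Ccr2-/- sdCAMs, 0 to 1 in reporter MG, 0 to 1 in tdT+ and 2 to 6 in tdT- sdCAMs. Between tdT+ and tdT- it gave 1 to 2 after LPS and 0 to 2 by interaction. Between sdCAMs and MG it gave 1 to 2 untreated and 1 to 3 after LPS in WT, and 4 to 5, 2 to 3 and, by interaction, 0 to 1 in Ccr2-/- mice. The cause of these changes was not tested.

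Over all genes, library totals alone moved the median log2 difference after LPS to -1.55 in WT sdCAMs, where 311 genes were then higher and 2575 lower against 389 and 275. There 664 genes passed, against 1655 in DESeq2, 2886 with library totals alone, 1142 with the IEG mark as a covariate and 1359 with 6 libraries. With the columns exchanged 1513 passed in tdT- sdCAMs against 3448, and 1097 in tdT+ against 1731. After LPS the fractions differed in 1368 genes, against 3882 with library totals alone, 0 with the columns exchanged and 855 with both left out, and by interaction in 657, against 1232 in DESeq2, 2214, 0 and 413. With both left out 1141 passed in tdT+. DESeq2 passed 2630 in tdT+, 855 in reporter MG against 118, 870 for the WT cell type interaction against 174, and 2305 between untreated sdCAMs of the genotypes against 1273. Library totals alone passed 7978 between WT cell types after LPS against 4816, 2708 for their interaction, 1509 when untreated against 2291, 569 between genotypes in sdCAMs and 179 for BLZ945 in WT sdCAMs against 0. The replicate block passed 1380 between untreated WT cell types and 91 for their interaction. The fold limit left 1972 of 3643 in WT MG, 2243 of 4036 in Ccr2-/- MG and 686 of 2170 between genotypes in MG.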

Other observations

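In Ccr2-/- mice after LPS, Irf1 was lowest in the mouse whose name ends in f in each of the 4 groups, a pattern chosen after the values were seen. After CTL it held 152 scaled CPM in MG against 334 and 337, and 190 in sdCAMs against 322 and 280. After BLZ945 it held 155 in MG against 253 and 311, and 174 in sdCAMs against 214 and 235. MG and sdCAMs of a treatment came from the same mice, so the pattern rests on 1 such mouse after CTL and 1 after BLZ945, and was not tested. Libraries of these mice held 596 to 3157 counts of Xist and 0 to 1 of Ddx3y. The name ending does not always match these genes. Untreated Ccr2-/- mouse 3m held 1392 counts of Xist and 27 of Ddx3y in sdCAMs, and 2728 and 1 in MG. In WT mice after LPS the order was the reverse, with Irf1 highest in the mouse with Xist counts and 0 of Ddx3y. That was mouse 1 after CTL, at 221 scaled CPM in MG and 121 in sdCAMs. After BLZ945 it was mouse 8, at 172 in MG and 178 in sdCAMs.

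Irf4 in MG without LPS was at 0 counts in all 3 reporter libraries, against 42, 76 and 38 counts in WT and 44, 53 and 106 in Ccr2-/- libraries. The reporter mice had received BLZ945 and were a separate batch, so genotype, treatment and batch cannot be told apart.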
